A study of Oryza sativa with 26 samples.

Results

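Early prophase of meiosis in rice anthers was set against the stages on either side of it. The members are 14 of the 26 arrays in the series, chosen by stage: the 7 early prophase arrays are M1 (leptotene, 4 arrays) and M2 (zygotene to pachytene, 3 arrays), and the 7 flanking arrays are Mei1 (premeiotic S or G2 phase, 3 arrays) and M3 (diplotene to tetrad, 4 arrays). All were whole anthers of Oryza sativa plants grown in paddy fields at Mishima, with no treatment or genotype difference between groups and no cultivar named in the labels. By their titles, the arrays within each stage are biological replicates. The other 12 arrays cover an earlier anther stage (An1) and 3 pollen stages (P1 to P3) and served as a separate look at the same probe sets.

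In leptotene, chromosomes condense into threads and recombination begins. In zygotene and pachytene the homologues pair and synapse, and they start to separate in diplotene. Around the meiocytes, the tapetum, the innermost layer of the anther wall, differentiates and feeds them. Jasmonate is a lipid-derived hormone made from linolenic acid by lipoxygenase, allene oxide synthase, allene oxide cyclase and OPR reductases. JAZ proteins repress the response to it, are destroyed when the hormone binds the COI1 receptor, and their own genes are switched on by the same signal in plants. In flowers jasmonate is known for its part in stamen maturation and in spikelet development.

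A value of 1 is the 75th percentile of its own array, the scale on which the authors deposited the intensities. Differences are log2(intensity + 1), which understates the change of dim genes. A call needed an adjusted p under 0.05 in limma (Benjamini-Hochberg) together with a log2 difference of at least 1. It was transient when M1 and M2 each passed that call, in one direction, against both Mei1 and M3. Array medians over all probe sets ran from 0.241 to 0.370 on the 14 arrays, and the lowest correlation between arrays of a stage was 0.932, in M2. M2 replicate 2 stood apart: its mean log2 value over 18 small heat shock genes was 3.58, against 1.17 to 2.10 on the other 13 arrays.

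Most calls between early prophase and its flanks were of higher levels. Of 41043 probe sets tested, 465 (1.13%) were higher in M1 and M2 together than in Mei1 and M3 together, and 103 (0.251%) were lower. Transient elevation held for 136 probe sets (0.331%), and no probe set was transiently lower (0%) by the limma test. Without the size threshold, 730 probe sets were higher and 133 lower in all 4 stage differences at an adjusted p under 0.05. At an unadjusted p under 0.05 the counts were 1294 and 362. None of these lower ones differed by a log2 difference of 1 or more in all 4 differences. In the pooled contrast, adjusted p alone gave 4700 higher and 5381 lower, and weighting arrays equally gave 416 and 182. A pseudocount of 4 in place of 1, which shrinks the differences of dim genes further, left 42 transient probe sets. Of the genes described here, JAZ6, JAZ8, LOX5, PDC, ACO1, LOG, MAPK6, PSY3, SGR and SWEET4 were not transient under it. A bulk anther sample cannot tell fewer cells of a type from less RNA per cell.

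The 465 higher probe sets were of several kinds. The 136 transient ones made up 29.2% of them. A further 202 were called above Mei1 in both M1 and M2 but not transient, so that M1, M2 or both were not called above M3. Another 49 were called above M3 in both stages and not transient. Of the 103 lower probe sets, 100 were called below M3 in both M1 and M2 and 1 below Mei1 in both. The lower probe set nearest to the size threshold in all 4 differences was that of LOC4330227, which the files leave without a symbol. Its intensities were 0.605, 4.38 and 2.99 in Mei1, 0.770, 0.702, 0.906 and 0.731 in M1, 0.533, 1.37 and 0.495 in M2, and 29.5, 32.9, 45.3 and 44.8 in M3. M1 and M2 lay below Mei1 by log2 differences of -0.87 and -0.89 (adjusted p = 0.0701 and 0.0427 in limma), so M1 did not pass even without the size threshold, and 1 Mei1 array lay within the early prophase range.

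**Figure D1:**
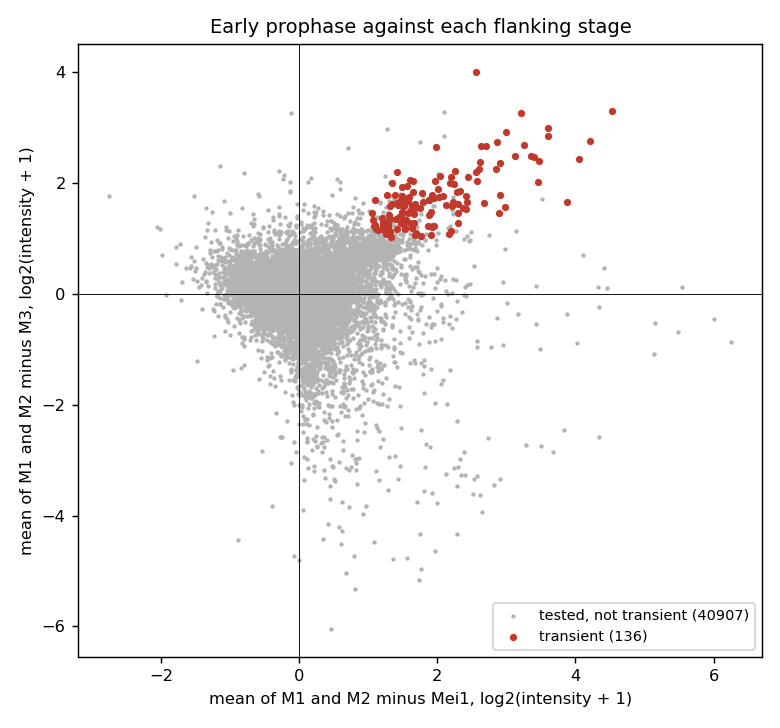
Each point is 1 of 41043 probe sets. The horizontal axis is the mean of M1 and M2 minus Mei1 and the vertical axis the mean of M1 and M2 minus M3, both in log2(intensity + 1). The 136 transient probe sets (red) sit in the upper right, and no red point lies in the lower left, where a transient dip would be.

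Among the 136 transient probe sets, 113 name 1 gene, for 107 genes in all, of which 35 have a symbol. Another 21 name no gene and 2 name several. Their log2 differences between the pooled sides ran from 1.15 to 3.91 with a median of 1.65, against a median of 0.00 over all probe sets tested; this contrast helped to choose them and is given as a description. The smallest of the 4 differences was at least 2 for 20 probe sets and at least 3 for 2. On 109 of them, all 7 early prophase arrays lay above all 7 flanking arrays. Over all probe sets tested, 747 (1.82%) had that pattern and 319 (0.777%) its opposite. Just inside the threshold were LOX5 and SGR, with smallest differences of 1.00 and 1.01, and just outside were LOC4337593 (1.00) and LOC4327289 (0.99).

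The transient rule required a rise already at leptotene. M1 was called above Mei1 for 1.34% of all probe sets and below it for 0.0609%, and M2 for 3% and 1.41%. Against M3, M1 was called above for 1.44% and below for 2.1%, and M2 for 1.24% and 1.29%. The 136 passed all 4 higher calls by definition. The median stage mean of the 136 probe sets was 1.06 in Mei1, 7.18 in M1, 9.66 in M2 and 1.76 in M3. M2 was the highest of the 8 stages for 95 probe sets, M1 for 21, P3 for 17 and P2 for 3. The mean in M2 was above that in M1 for 114, but the difference passed the test for only 3 of the 136, with 2 higher in M2 and 1 lower. The background for M2 minus M1 was 0.709% higher and 0.322% lower. M3 minus Mei1 was called higher for 10 of them and lower for none, where 3.03% and 1.67% of all probe sets were called.

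Arrays of the same stage did not give the same height. M2 replicate 2 was the lowest of the M2 arrays for 121 of the 136 (89.0%), against 36.5% of all probe sets tested. M2 replicate 1 was the highest of the 14 arrays for 79. In M3, replicates 3 and 4 both lay above replicates 1 and 2 for 63 of the 136 (46.3%), against 22.0% of all probe sets.

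**Figure D2:**
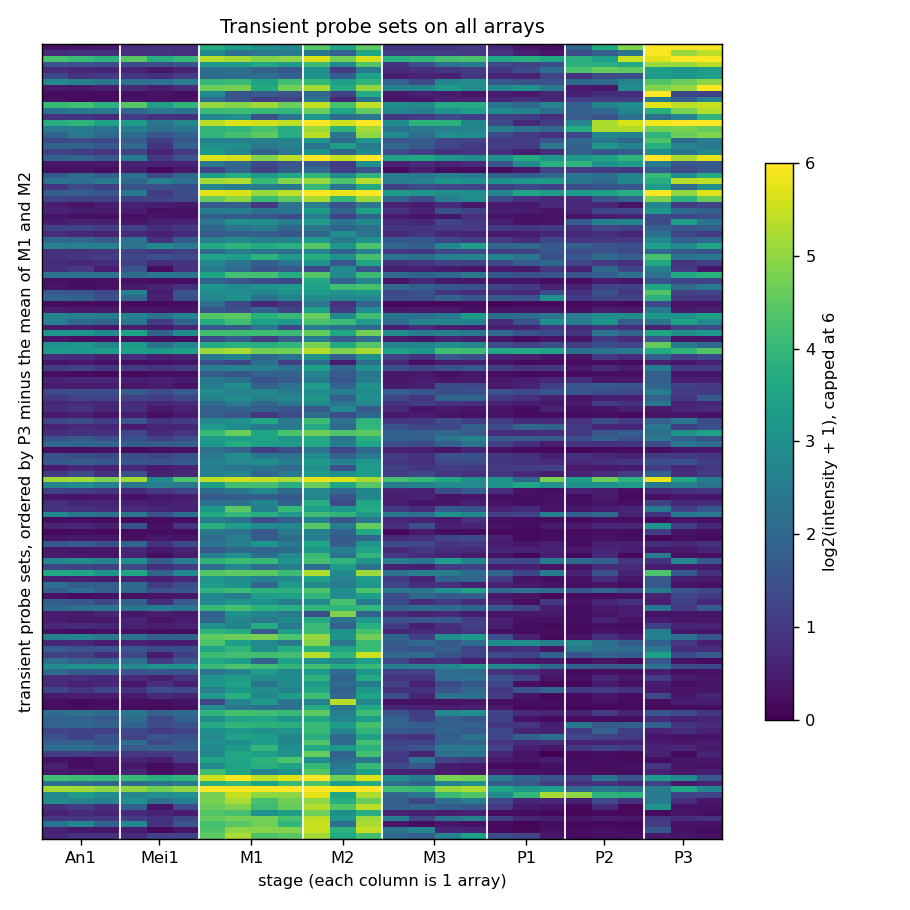
Each row is 1 of the 136 transient probe sets and each column 1 of the 26 arrays, grouped by stage; colour is log2(intensity + 1), capped at 6. Rows are ordered by P3 minus the mean of M1 and M2. The M1 and M2 blocks are bright in nearly every row, the middle M2 column (replicate 2) is mostly dimmer, and the top rows are bright again in P3.

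Transcription factors were among the genes with the widest margins. HOX12 (LOC4331956), a homeobox-leucine zipper factor, read 2.66, 0.255 and 1.51 in Mei1 and rose to 24.0, 27.2, 16.3 and 23.1 in M1. It read 38.5, 19.6 and 41.3 in M2 and was back at 2.50, 2.92, 2.45 and 2.03 in M3. Every early prophase array lay above every flanking array; the smallest of the 4 differences was 2.75, with adjusted p = 1.53e-05 or lower in each limma test. The related factor hox14 (LOC4343726) ran from 3.60 through a median of 6.26 to 15.8 in early prophase and from 0.175 through 0.499 to 0.928 in the flanks, with a smallest difference of 1.99.

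NAC068 (LOC4327485, also called NAC4), of the plant NAC factor family, read 1.42, 0.641 and 0.902 in Mei1, and 15.7, 24.3, 10.5 and 18.7 in M1. Its M2 values were 24.9, 19.5 and 21.5, and its M3 values 2.63, 2.56, 2.95 and 2.18. The groups did not overlap, and the smallest difference was 2.30. WRKY71 (LOC4328512), which in rice aleurone represses gibberellin-induced genes, read 3.70, 2.54 and 2.74 in Mei1, 21.6, 23.8, 26.2 and 18.6 in M1, 32.1, 8.02 and 25.1 in M2 and 2.91, 1.19, 6.73 and 8.50 in M3. It was transient (smallest difference 1.98), although M2 replicate 2 fell below M3 replicate 4.

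Of 34 homeobox genes tested, 2 were transient and 3 higher in the pooled contrast. The background at 1 value per gene was 0.641% transient, 1.84% higher and 0.448% lower over 16535 genes. The third was HOX24, which ran from 0.320 through 2.63 to 10.7 in early prophase and from 0.165 through 0.390 to 1.33 in the flanks (pooled difference 1.55, SE 0.40, adjusted p = 0.0109 in limma); with a pseudocount of 4 the difference was 0.82 and the call was lost. NAC factors gave 1 transient gene of 8 and 2 higher, the other being NAC048 (pooled difference 1.70). WRKY71 was the 1 transient gene of 6 WRKY factors. List medians of the pooled difference were 0.07 for homeobox, 0.37 for NAC and 0.44 for WRKY genes, against -0.04 over all genes tested.

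Enzyme genes and a dehydrin gene followed. AMY3D (LOC4345814), an alpha-amylase that rice cells switch on when sugar is short, read 0.301, 0.141 and 0.318 in Mei1. It rose to 6.29, 10.1, 12.7 and 10.4 in M1 and 15.0, 4.55 and 15.3 in M2, and was 1.55, 2.16, 0.390 and 0.330 in M3. All early arrays lay above all flanking arrays, and the smallest difference was 2.43.

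PDC (LOC4339066), a pyruvate decarboxylase of ethanol fermentation, was near background outside early prophase. It read 0.180, 0.171 and 0.264 in Mei1, 1.40, 5.33, 8.40 and 3.84 in M1, 5.20, 40.5 and 5.81 in M2, and 0.229, 0.233, 0.229 and 0.243 in M3. Its highest array was M2 replicate 2, the array with the high small heat shock values, and without that array the gene was still transient. Without Mei1 replicate 2 PDC was no longer transient.

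RAB16B (LOC4350453), a dehydrin that answers to abscisic acid, read 5.997, 0.845 and 1.99 in Mei1, 17.5, 20.8, 25.4 and 14.5 in M1, 43.8, 3.53 and 37.5 in M2, and 0.296, 0.158, 0.314 and 0.223 in M3. M2 replicate 2 lay below the highest Mei1 array, so the groups overlapped. The smallest difference was 2.55 with a largest adjusted p of 0.0110 in limma, and the transient call was lost without Mei1 replicate 2.

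A neighbouring pair of genes had the highest levels of these. The genes pinA (LOC9268662) and OSE727A (LOC9271230, also listed as RBTI, a trypsin inhibitor) stand next to each other in the RefSeq gene order. The pinA probe set read 4.35, 1.03 and 1.73 in Mei1, 52.1, 50.4, 32.5 and 41.8 in M1, 91.9, 55.0 and 78.4 in M2 and 8.74, 8.02, 6.68 and 6.94 in M3. OSE727A ran from 28.1 through 48.1 to 86.4 in early prophase and from 0.983 through 6.73 to 10.9 in the flanks. Neither overlapped between the groups, and the smallest differences were 2.38 and 2.10. Stage means of pinA and OSE727A were close, at 2.37 and 2.50 in Mei1 and 44.2 and 42.0 in M1. They were 75.1 and 68.6 in M2 and 7.60 and 8.94 in M3. Whether the probe sets read 1 shared signal was not tested. The probe set of OSE727A, like those of AMY3D, JAZ6, CPK13, LOX5, EL2 and SGR, carries a suffix for probes that can match more than 1 transcript. Apart from this pair, 3 pairs of transient genes were neighbours: WRKY71 with LOC4328509, ERR26 with LOC4351214, and LOC4345860 with LOC4345861.

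**Figure D3:**
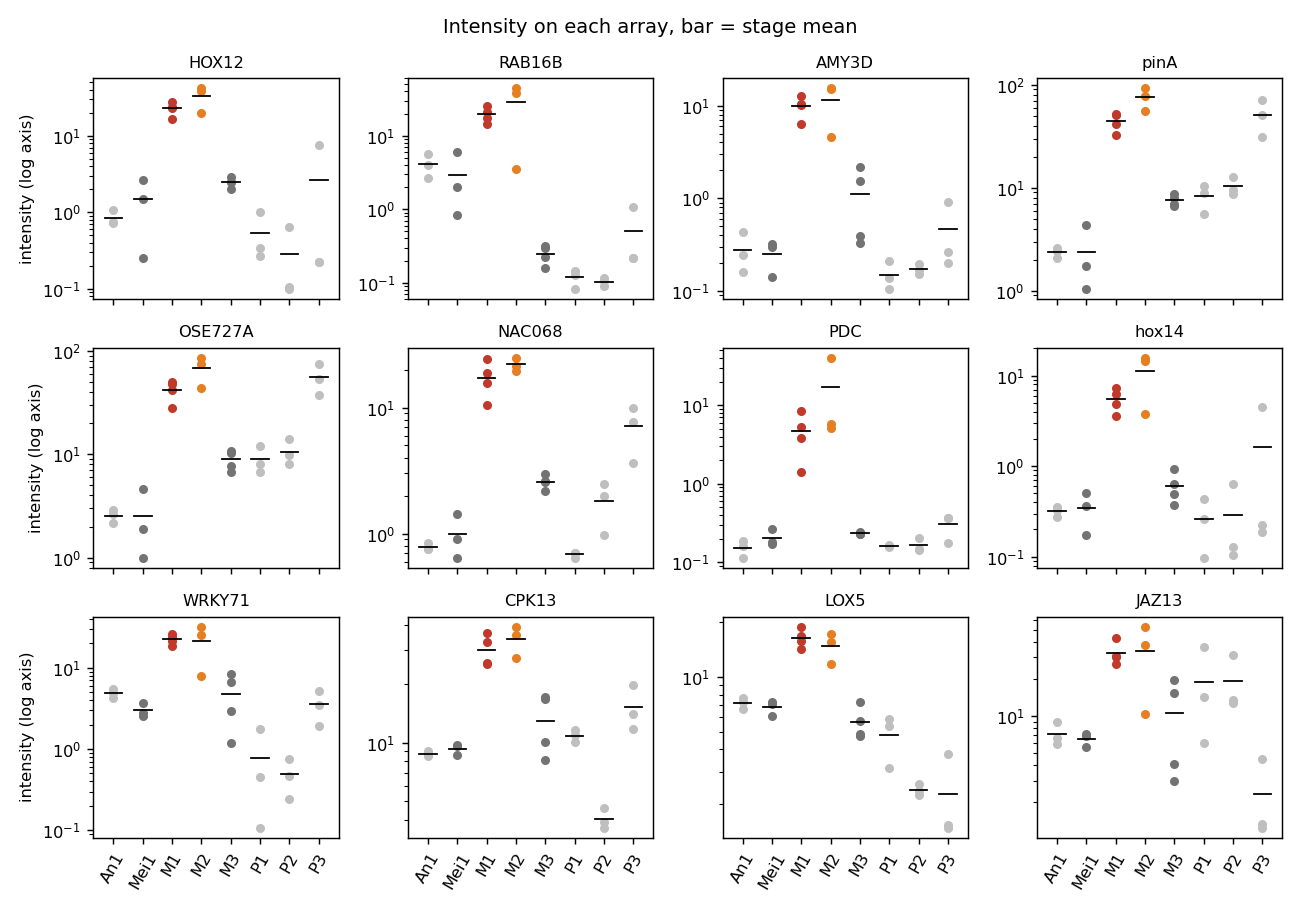
Intensity on each of the 26 arrays for 12 transient genes, on a log axis per gene; red is M1, orange M2, dark grey the flanking stages Mei1 and M3, light grey the other stages, and the bar is the stage mean. The stage means of M1 and M2 stand above those of both flanks in each panel, while single arrays overlap for RAB16B, WRKY71 and JAZ13. The genes pinA and OSE727A climb again to means of 50.9 and 55.5 in P3.

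JAZ genes gave more transient members than any other list described here. Of 17 jasmonate response genes listed, 16 were tested. Of these, 6 were transient and 9 were higher in the pooled contrast, with none lower. Over all genes tested, 0.641% were transient and 1.84% higher. The list's median pooled difference was 1.46. Its genes were listed with the earlier finding of JAZ rises known, so the count is no independent evidence of their direction.

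JAZ12 (LOC4348533) read 1.22, 1.36 and 1.65 in Mei1, 23.3, 30.7, 15.4 and 21.8 in M1, 37.1, 15.0 and 33.5 in M2 and 2.77, 1.69, 4.94 and 6.20 in M3. JAZ7 (LOC4343899) ran from 15.3 through 32.9 to 38.9 in early prophase and from 3.10 through 5.11 to 7.55 in the flanks. For both, the groups did not overlap, and the smallest differences were 2.34 and 2.01.

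JAZ11 (LOC4331833) rose from 0.635, 0.423 and 0.702 in Mei1 to 23.7, 26.3, 11.4 and 24.9 in M1 and 36.4, 11.9 and 31.3 in M2. It stayed at 5.18, 5.71, 8.59 and 6.25 in M3, so its fall (smallest difference 1.56) was less deep than its rise. JAZ8 (LOC4347164) and JAZ6 (LOC4333065) also lay above all flanking arrays on all early arrays, at 3.21 to 14.7 against 0.383 to 2.58 and at 10.7 to 23.3 against 2.91 to 9.08. The JAZ6 call was lost without M3 replicate 2.

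JAZ13 (LOC4348531) was the least steady of the 6. It read 5.61, 6.88 and 7.17 in Mei1, 26.4, 42.9, 30.6 and 30.2 in M1, 52.7, 10.4 and 37.2 in M2 and 2.97, 4.10, 15.4 and 19.7 in M3. M2 replicate 2 fell within the M3 range, and the largest of the 4 adjusted p-values was 0.0393 in limma. The transient call was lost when any 1 of Mei1 replicates 1, 2 or 3, M2 replicates 1 or 3, or M3 replicates 1 or 2 was left out.

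JAZ9, JAZ10 and BHLH148 were higher in the pooled contrast without being transient; BHLH148 was not called with a pseudocount of 4 (0.97). JAZ9 (LOC4331832) rose by 2.89 and 3.06 from Mei1 to M1 and M2 but differed from M3 by 0.73 and 0.90, which did not pass. JAZ10 (LOC4331834) had means of 14.2 ± 2.25 in Mei1 (SD, n = 3), 45.4 ± 8.71 in M1 (n = 4), 42.5 ± 22.8 in M2 (n = 3) and 19.3 ± 16.9 in M3 (n = 4). Its spread in M2 and M3 was wide, and only 1 of its 4 stage differences passed (M1 minus M3, 1.69, adjusted p = 0.0322 in limma). The receptor genes COI1 and COI1B and the repressor genes JAZ1 to JAZ5 passed neither call.

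The list of jasmonate synthesis genes and the OPR family had 14 members tested, of which 6 are OPR genes and 1 is JAR1, which joins jasmonate to isoleucine. In it 1 gene was transient and 4 were higher in the pooled contrast, where 0.641% and 1.84% of all genes tested were. The median was 0.20. With a pseudocount of 4 none of the 4 was called: the differences were 0.94 for LOX5, 0.95 for AOS, 0.96 for aoc and 0.44 for OPR1. LOX5 (LOC4333823), a lipoxygenase, ran from 11.8 through 15.7 to 18.9 in early prophase and from 4.76 through 6.12 to 7.31 in the flanks. The groups did not overlap, but its smallest difference was at the threshold, and the transient call was lost with a pseudocount of 4, under quantile normalization, under centring on array medians, and without Mei1 replicate 1, M2 replicate 1 or M2 replicate 3. The allene oxide synthase gene AOS (LOC4334233) had pooled difference 1.39, the allene oxide cyclase gene aoc 1.09 and the reductase gene OPR1 1.09. The allene oxide synthase entries LOC4332121 (0.02), AOS3 (0.16) and AOS4 (0.06) did not pass the pooled call. Neither did LOX2 (0.23), JAR1 (-0.51), OPR13 (0.76), OPR5 (0.33), OPR10 (0.16), OPR4 (-0.01) or OPR7 (-0.12).

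**Figure D4:**
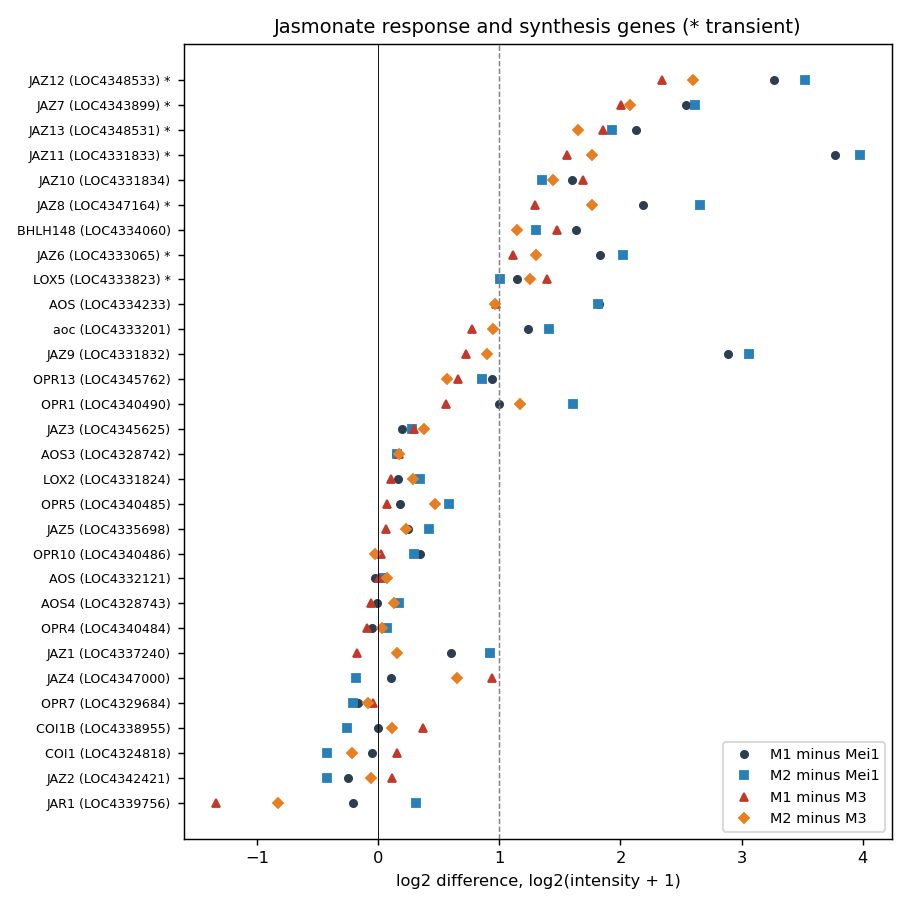
Log2 differences of each jasmonate response and synthesis gene tested: M1 and M2 minus Mei1 (dark circle and blue square) and M1 and M2 minus M3 (red triangle and orange diamond). Stars mark the 7 transient genes, whose 4 symbols all lie at or right of the dashed line at 1; JAZ9 and JAZ11 differ more from Mei1 than from M3.

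Signalling genes of other pathways were transient too; the genes of this and the next paragraph, except CPK13, were chosen after their values were seen. CPK13 (LOC4336783), a calcium-dependent protein kinase, ran from 25.2 through 32.7 to 39.3 in early prophase and from 8.11 through 9.67 to 17.1 in the flanks. It was the 1 transient gene among 17 such kinases, where 0.641% of all genes tested were transient. The median pooled difference of these kinases was 0.02. CML27, a calmodulin-like protein gene, ran from 9.39 to 17.3 against 1.59 to 6.78, and MAPK6, a mitogen-activated protein kinase gene, from 9.30 to 18.7 against 2.84 to 7.23. PSK5 (LOC4351500), which encodes a precursor of the peptide hormone phytosulfokine, differed little between arrays of a side: it ran from 12.7 to 17.6 in early prophase and from 2.68 to 4.57 in the flanks (pooled difference 1.76, SE 0.09).

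Enzyme genes of other hormone and pigment routes, and a cell cycle inhibitor gene, were transient as well. ACO1, an enzyme of the last step of ethylene synthesis, ran from 5.73 to 15.1 against 1.08 to 2.85, and LOG, which releases active cytokinin, from 2.91 to 9.51 against 0.897 to 2.10. The LOG call was lost without M1 replicate 2 or M3 replicate 2. PSY3, a phytoene synthase of the carotenoid route, ran from 3.28 to 19.2 against 1.36 to 3.44, and its call was lost in 15 of 27 alternatives, among them the removal of any 1 array of Mei1, M1 or M3. EL2, an elicitor-responsive inhibitor of cyclin-dependent kinases, ran from 4.94 to 21.6 against 1.16 to 6.73, and its call was lost without Mei1 replicate 2, M2 replicate 1 or M2 replicate 3.

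Lists for meiosis and for the tapetum held no transient gene, where 0.641% of all genes tested were transient. Lists this short may well hold none at that share. The 14 meiosis genes had a median pooled difference of -0.08, and none passed the pooled call in either direction. Over all genes tested, 1.84% passed it as higher and 0.448% as lower. MEL1 (LOC4334449), an Argonaute gene of premeiotic germ cells, read 40.04, 42.8 and 37.7 in Mei1, 23.5, 16.8, 13.8 and 9.83 in M1, 1.04, 2.09 and 0.975 in M2 and 0.813, 0.757, 0.934 and 0.704 in M3. It fell from stage to stage, so the pooled contrast (-0.49) averages unlike stages, and it was 0.04 when each array had equal weight.

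No tapetal gene of these lists passed the transient rule, which 0.641% of all genes tested passed. Of 8 anther wall and tapetum regulators, BHLH142 alone was higher in the pooled contrast (1.12, SE 0.15), at 11.7 to 23.0 in early prophase and 4.46 to 10.4 in the flanks. It was not transient, as M1 and M2 lay above Mei1 by 0.86 and 0.91, short of the size threshold. All 4 adjusted p-values were under 0.05 in limma, and all its early prophase arrays lay above all flanking arrays. The share higher in the pooled contrast over all genes tested was 1.84%. With a pseudocount of 4 the pooled difference of BHLH142 was 0.89 and the pooled call was lost. C6, a tapetal lipid transfer protein gene, was lower (-2.79): it read 0.249, 0.301 and 4.81 in M2 and 70.7, 127, 97.3 and 129 in M3. AP25, a tapetal aspartic protease gene, was lower too (-2.11), and read 2.51, 5.75 and 52.7 in M2 and 130, 128, 107 and 128 in M3. For both, M2 replicate 3 was the M2 array nearest to M3, and neither gene passed the call between M1 or M2 and Mei1.

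Marker levels differed between the stages in several ways. Summed over 7 tapetum markers tested of 8 listed, intensity was 8.23 to 13.5 in Mei1, 19.4 to 54.7 in M1, 147 to 219 in M2 and 346 to 413 in M3. C4, C6 and CYP703A3 made up most of that sum in M3, at means of 145, 106 and 92.4. Not every marker followed the sum: EAT1 had means of 6.43 in Mei1, 9.29 in M1, 2.96 in M2 and 16.5 in M3. RTS, a tapetum gene of later stages, was near background in all 4 stages, at means of 0.177 to 0.247. Over 5 germ line markers tested of 9 listed, the sum was 52.5 to 56.4 in Mei1, 20.9 to 35.4 in M1, 6.73 to 11.3 in M2 and 6.57 to 8.06 in M3. MEL1 made up most of that sum in Mei1. The names of the recombinase genes DMC1A and DMC1B both led to the locus LOC4351482. Its probe set had means of 1.26 in Mei1, 1.80 in M1, 0.599 in M2 and 0.380 in M3, and PAIR2 had 9.04, 7.01, 5.05 and 4.63. Whether the DMC1 probes read both copies was not tested. Sums over markers of other floral organs (5 of 6 tested) ran from 5.78 to 9.93 in early prophase and from 4.42 to 11.01 in the flanks, and those over green tissue markers (2 of 5) from 8.95 to 45.7 and from 6.56 to 88.1. Whether a change in cell make-up takes part in the transient rise was not tested.

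Heat shock and auxin genes gave isolated calls, where 1.84% of all genes tested were higher in the pooled contrast. None of 18 small heat shock genes was called, with a list median of 0.22. Their leader, HSP24.1, read 30.5 on M2 replicate 2 and at most 2.18 on the other early arrays. Among 26 other heat shock proteins and factors, HSF24 (pooled difference 1.09) and HSF25 (1.05) were higher, and the HSF25 call was lost without Mei1 replicate 1. With a pseudocount of 4 the differences were 0.45 and 0.53 and neither was called. Of 55 auxin response genes, IAA2 (1.22) and GH3-8 (1.08) were higher, and the GH3-8 call was lost without M3 replicate 1, with arrays weighted equally and with no stage term. With a pseudocount of 4 they had 0.59 and 0.70, and neither was called. IAA2, an Aux/IAA repressor gene, ran from 2.52 to 4.25 in early prophase and from 0.265 to 2.08 in the flanks.

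Growth and housekeeping lists stayed without a pooled or transient call. Over all genes tested, 0.641% were transient, and 1.84% were higher and 0.448% lower in the pooled contrast. At those shares a short list may well hold no call, so the absence is not a result about these lists. No gene passed the pooled or the transient call among 25 genes of DNA replication and cell cycle, 5 histone genes, 33 kinesins, 10 gibberellin genes, 11 ethylene response and DREB factors, 21 potassium transporters, 18 expansins, 22 cytosolic ribosomal protein genes, 6 photosynthesis genes, 12 actin cytoskeleton genes and 26 floral organ and MADS-box genes. Their list medians ran from -0.23 for actin genes to 0.09 for histones. The largest pooled differences in size among them were those of PCNA (-0.49), H2B.10 (-0.35), KIN13B (-0.47), GA20OX3 (0.30), DREB1A (0.48), HAK1 (0.73), EXPB3 (-0.54), rps20 (-0.33), CAB2R (-0.47), ADF11 (-0.80) and MADS55 (-0.59), in that order of lists. Single stage differences did pass the call for some of these genes. M2 minus Mei1 was -1.92 for PCNA, -1.89 for H2B.10 and 2.37 for HAK1. M1 minus M3 was -1.99 for MADS55 and -1.29 for EXPB3, so the pooled contrast averages unlike stages. Some pooled differences passed the adjusted p but not the size. KIN13B, a kinesin gene, ran from 3.08 to 4.59 in early prophase and from 4.68 to 6.31 in the flanks, with no overlap.

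**Figure D5:**
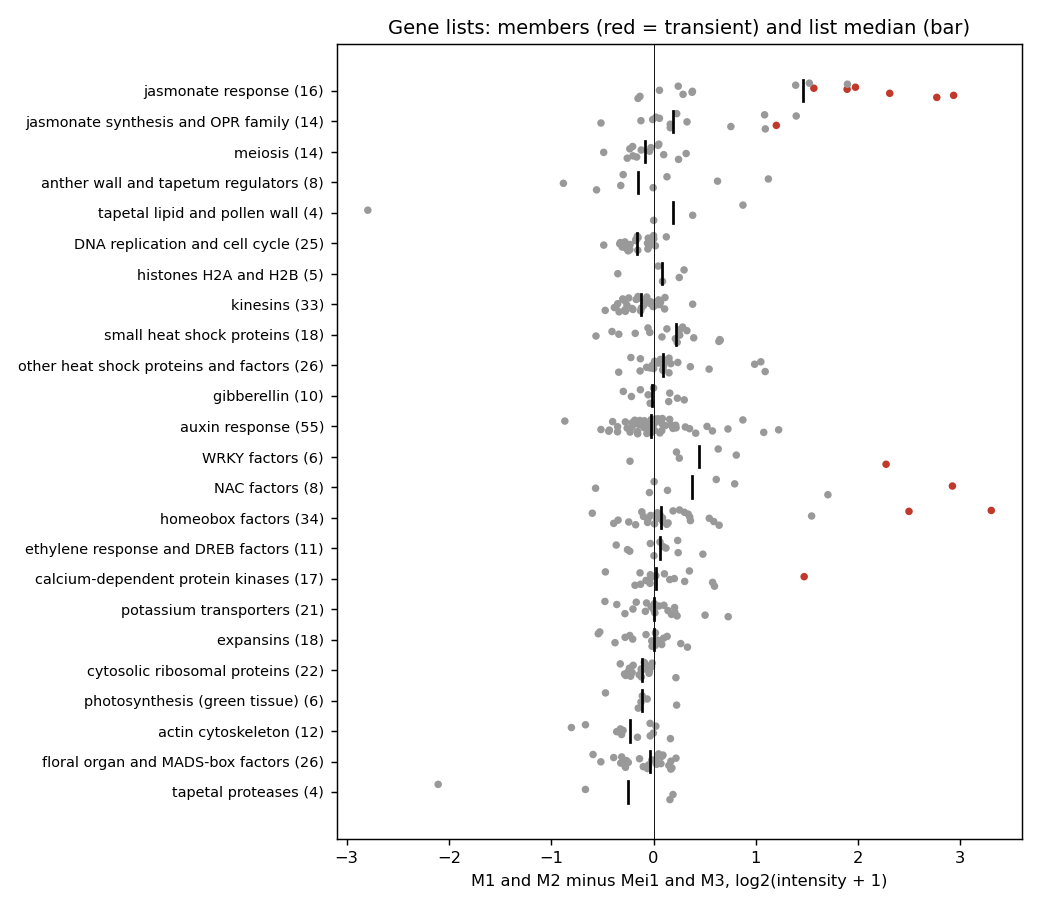
Pooled log2 differences, M1 and M2 minus Mei1 and M3, of every tested member of 24 gene lists (points; red is transient; number tested in brackets) with the list median as a bar. Jasmonate response has the highest median, 1.46, and the points of C6 (-2.79) and AP25 (-2.11) lie far to the left.

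Some of the transient genes came up again in late pollen, on arrays that the transient rule had not used. From P2 (3 arrays) to P3 (3 arrays), 34 of the 136 (25%) were called higher and 4 (2.94%) lower, against 3.95% and 4.5% of all probe sets. P3 replicate 1 stood apart, with a small heat shock mean log2 of 3.60; without it the count was 26 (19.1%) against 5.87%. The shares over all probe sets were not matched for intensity, and log2(intensity + 1) understates the change of dim genes. The shares of the 136 and of all probe sets are therefore not like for like. The pollen stages were whole anthers too, so wall and pollen RNA cannot be told apart.

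Several JAZ genes were among these. JAZ11 read 0.350, 0.298 and 6.40 in P2 and 28.3, 32.0 and 59.97 in P3, above its early prophase median of 24.9. JAZ12, JAZ7 and JAZ6 also rose, by 3.04, 2.49 and 2.42 on the log2 scale, while JAZ13 fell by 2.60. The genes pinA and OSE727A rose by 2.14 and 2.26, NAC068 by 1.47, WRKY71 by 1.56, CPK13 by 1.64 and CML27 by 2.37.

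For some of them P3 was the peak and early prophase the lesser rise. SWEET4, a sugar transporter gene, read 13.0, 9.80 and 44.3 in P2 and 51.7, 221 and 254 in P3, against 25.9 to 50.5 in early prophase and 12.4 to 20.9 in the flanks. Its transient call was near the threshold (smallest difference 1.02) and was lost with a pseudocount of 4, in the fit on all 26 arrays, and without Mei1 replicates 2 or 3, M1 replicates 1 or 2, or M3 replicates 1 or 2. LOC4327292, which has no symbol, read 2.94, 11.5 and 27.5 in P2 and 88.1, 127 and 162 in P3, against 5.80 to 21.8 in early prophase and 0.696 to 1.02 in the flanks. SGR, a gene of chlorophyll breakdown, read 1.12, 0.998 and 1.16 in P2 and 4.33, 2.58 and 5.30 in P3; its transient call was lost when any 1 of Mei1 replicates 2 or 3, M1 replicates 1 or 2, M2 replicates 1 or 3, or M3 replicates 1 or 2 was left out.

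Other transient genes did not pass the call between P2 and P3. Among them were HOX12 (P3 minus P2, 0.89), RAB16B (0.40), AMY3D (0.29), hox14 (0.66) and PDC (0.16). PDC, LOC4334049 (0.25) and LOC4328676 (0.45) had adjusted p-values under 0.05 in limma with differences under the size threshold. HOX12 read 7.47 and hox14 4.50 on P3 replicate 1, against at most 0.225 on the other P3 arrays. LOC4325989 had the widest margin of any gene, with no symbol in the table used. It read 0.639, 0.493 and 0.381 in Mei1, 20.2, 17.7, 7.34 and 9.72 in M1, 25.1, 6.94 and 12.6 in M2 and 0.502, 0.431, 0.385 and 0.471 in M3, and its smallest difference was 3.19. LOC4334049, LOC4338976 and LOC4328676 had smallest differences of 2.85, 2.47 and 2.39, and none of the 3 overlapped between the groups. The probe set with the largest pooled difference, 3.91, names no gene; its stage means were 0.270 in Mei1, 26.7 in M1, 33.4 in M2 and 2.66 in M3.

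For 20 of the transient genes, 21 further probe sets were tested that were not themselves transient. Of these, 20 had a positive pooled difference and 3 passed the pooled call, where 49.9% of all probe sets tested were positive and 1.13% were called higher. Apart from these 21, 6 genes were transient on more than 1 probe set, EL2 among them.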

How the data were processed

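Intensity values of 26 Affymetrix Rice Genome Arrays were used as the authors deposited them, on a linear scale with the 75th percentile of each array at 1. GCOS 1.3 is named per the submitters' processing notes, with no role given; background and summary settings are not given in the sources used here. The members and gene lists were chosen with earlier results of these data known.

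Of 57381 probe sets, 187 controls were left out, and 41043 with a mean over the 40th percentile (pooled log2 values) for at least 1 of the 4 stages were tested. Log2(intensity + 1) values of the 14 arrays were fitted with 4 stage means in limma 3.58.1 (R 4.3.3, two-sided, intensity trend). Adjusted p-values are Benjamini-Hochberg over all probe sets tested. P3 minus P2 was fitted on the other 12 arrays. Tested on simulated data, the transient rule recovered 96 of 100 probe sets given a log2 step of 2, with 0 false calls. That step is above the size threshold. Of the 136 transient probe sets, only 20 had a smallest difference of at least 2, and recovery at smaller steps was not tested. Made data need not vary as the arrays did, so these counts give no error rate for the transient calls. Precision is limited by how many arrays each stage has.

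Genes were named through the platform annotation and RefSeq (assembly ASM3414082v1, names and gene order only), at 1 value per gene from its brightest probe set by mean of the 26 arrays; of the probe sets tested, 20054 had 1 gene, 82 several and 20907 none. The rule named the 10 transient genes with a symbol and the 4 without that had the largest smallest-of-4 difference, up to 3 transient genes per list and the leading gene of each other list. The other genes named were chosen after their values were seen. Replicate numbers were not used as pairs in the main fit. Deviations of same-numbered arrays from their stage means correlated at -0.226 to 0.293. Arrays of different numbers were not compared, so this range cannot tell whether the numbers pair the arrays. Alternatives covered the pseudocount, filter, normalization, variance trend, array weights, replicate block, arrays in the fit, size threshold, weights and left-out arrays.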

Additional observations from a re-analysis of the deposited data

Results flagged for a closer look

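Within stages of 4 arrays, the highest or lowest array of 5 named genes lay far from the other 3 by Dixon's test, among 122 groups tested; chance gives about 1 in 20. The JAZ11 intensity was 11.4 on M1 replicate 3, against 23.7 to 26.3 on the others. LOC4338976 read 16.4 on M1 replicate 1, against 17.3 to 17.4. OPR13 read 10.9 on M1 replicate 2, against 8.09 to 8.45. The level of C6 was 0.209 on M1 replicate 3, against 0.164 to 0.170. AP25 read 107 on M3 replicate 3, against 128 to 130.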

How the results depend on the processing

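The pooled contrast gave 465 probe sets higher and 103 lower and the transient rule 136 higher and 0 lower. With a pseudocount of 4 these became 135, 36, 42 and 0, and the calls from P2 to P3 went from 34 higher and 4 lower to 18 and 1. With the 20th percentile of values (0.149) as pseudocount they became 1153, 270, 349 and 2, and with adjusted p alone 4700, 5381, 730 and 133. The pseudocounts change how dim values are scaled, and adjusted p alone drops the size threshold. What else moved these counts was not tested. Array weights gave 1 transiently lower probe set. With arrays weighted equally 416 were higher and 182 lower in the pooled contrast (69.6% higher, against 81.9%), and with 2 groups of 7 arrays and no stage term 367 and 14 (96.3%); the cause was not tested. Leaving out 1 array gave 389 to 579 higher, 71 to 143 lower, 101 to 169 transiently higher and 0 to 1 transiently lower, the 1 without Mei1 replicate 1, and 26 to 38 higher and 2 to 6 lower from P2 to P3. The 2 lower came without P2 replicate 1, P3 replicate 2 or P3 replicate 3. With the replicate block the counts were 467, 101, 143 and 0, of which 133 of the transient probe sets were shared with those without it. The pooled difference of MEL1, -0.49, turned to 0.036 with arrays weighted equally and with no stage term, and that of HSP24.1, 0.65, ran from -0.0040 (without M2 replicate 2) to 0.985 (without M2 replicate 1). Quantile normalization and centring moved the median of all probe sets to -0.02 each. Of the pooled values of named genes, 1661 kept their direction and call and 3 turned. Another 19 lost the call, 17 of them by size and 2 (C6, -3.32, and AP25, -2.39, with no stage term) by adjusted p alone, and 10 gained it, 8 of them where the size threshold was dropped. HOX12, JAZ7, JAZ11, JAZ12, NAC068, pinA, hox14 and PSK5 stayed transient in all 27 alternatives. Without the probe sets whose suffix marks shared probes, chosen after seeing the data, 101 were transient. A dim probe set near the array median carries little signal over background, and no detection calls were used here.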
